A study of Mus musculus with 14 samples.

Results

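In the inguinal fat of 14 C57BL/6J mice, 38 of 39756 transcripts had every library from a CGP-infused mouse on 1 side of every library from a saline-infused mouse. Of these, 25 were higher under CGP (0.0629% of the transcripts examined) and 13 were lower (0.0327%). Together they make up 0.0956%. They were chosen by that separation itself, so the CGP difference of each is a description here, with no test and no p-value.

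Inguinal fat is a subcutaneous depot that stores lipid and can take on heat-producing adipocytes. The renin-angiotensin system makes the peptide angiotensin II, which acts on the angiotensin type 1 and type 2 receptors. The type 1 receptor is known for vasoconstriction and the type 2 receptor for effects that often oppose it. CGP is the agonist given in this study, and it acts specifically on the type 2 receptor. The series concerns these receptors in fat and heat production.

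The 4 groups crossed genotype with infusion. Non-transgenic mice received saline (CON, n = 3) or CGP (CON_CGP, n = 4), and transgenic SRA mice, in which the renin-angiotensin system of the brain is specifically activated, received saline (SRA, n = 3) or CGP (SRA_CGP, n = 4). The saline arm therefore held 6 libraries and the CGP arm 8, with 7 male and 7 female mice over both. Females numbered 1 of 3 in CON, 2 of 3 in SRA and 2 of 4 in each CGP group. All groups share the strain and the tissue. The labels state no age, dose, length of infusion or promoter for the SRA transgene. Each library was taken as 1 mouse, and nothing in the labels says how the mice were housed or processed, so p-values measure the spread between these libraries.

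The deposited table gives 1 normalized value per UCSC transcript ID and library for 55419 transcripts, and 0 of these IDs matched a gene name in the tables used here. The files do not pair IDs with names. No transcript below can therefore be called by gene or role, no sequence is shown, and the tissue label could not be checked against marker genes. To find the 38, the 200 transcripts of highest mean and the 15463 with a mean under 10 were dropped. Each library was then divided by its median-of-ratios size factor, the median ratio to the geometric mean over 38989 transcripts without zeros. Values below are on that rescaled scale. Log2 differences are of log2(value + 1), from a linear model of the 4 groups that also holds sex. CGP differences within a genotype are instead plain differences of group means, with no sex term. Transcripts are called H1 to H25 (higher) and L1 to L13 (lower), ordered by the gap between the arms. The gap is the log2 distance between the nearest CGP and the nearest saline library.

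All deposited columns had nearly the same total (79970748 to 79985973), so the depth is unknown. Size factors overlapped between the arms, at 0.854 to 1.16 under saline and 0.885 to 1.13 under CGP. Sex-specific transcripts (12 of males, 49 of females) were picked on the deposited values, before rescaling. They reached 100 in all mice of a sex and were lower in each mouse of the other sex. They also fell to 1 or less in at least 1 of the latter. Summed, those of the other sex stood at 3.84% to 17.1% of their level in that sex in 6 libraries, 2 of the saline arm and 4 of the CGP arm, against at most 1.97% in the other 8. The highest were SRA_CGP replicate 1 (17.1%) and CON_CGP replicate 1 (13.9%), both male. The other 4 were CON replicate 3, SRA replicate 3, CON_CGP replicate 4 and SRA_CGP replicate 3. In whole tissue, fewer cells of a type and less RNA per cell cannot be told apart.

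**Figure D1:**
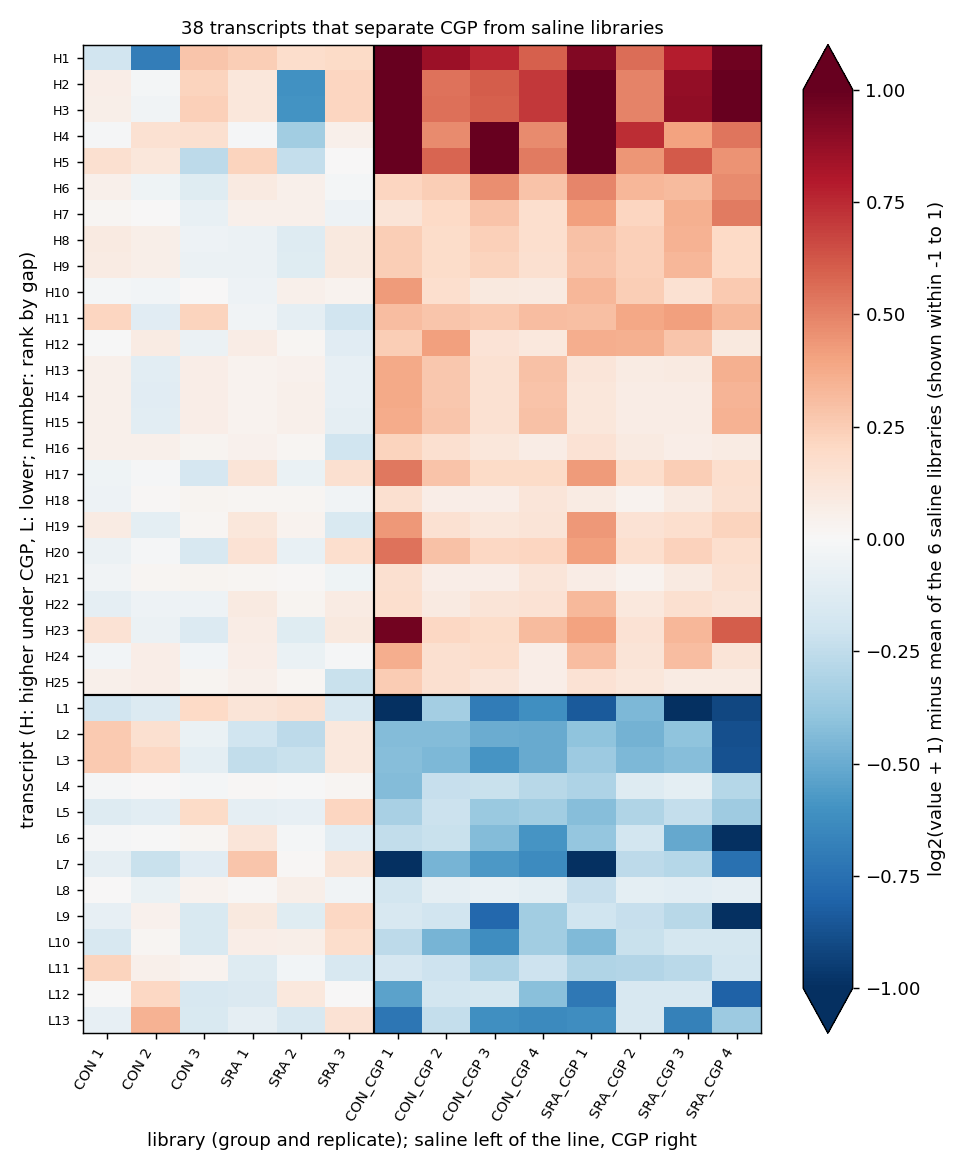
Each row is 1 of the 38 transcripts (H1 to H25 higher under CGP, L1 to L13 lower) and each column 1 library. Colour gives log2(value + 1) minus the mean of the 6 saline libraries, shown within -1 to 1. Of the higher rows H1 to H5 are the darkest under CGP, and H6 to H25 are paler, with log2 differences of at most 0.39.

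The largest gap was that of H1 (uc007zgh.1). It stood at 218, 154 and 302 in CON and at 297, 282 and 286 in SRA. Under CGP it stood at 517, 454, 424 and 379 in CON_CGP and at 475, 369, 431 and 492 in SRA_CGP. The arms were apart by 0.286 on the log2 scale, between CON replicate 3 at 302 and SRA_CGP replicate 2 at 369. The mean was 225 ± 74.2 (SD, n = 3) in CON and 288 ± 7.72 (SD, n = 3) in SRA. It was 444 ± 57.9 (SD, n = 4) in CON_CGP and 442 ± 55.1 (SD, n = 4) in SRA_CGP. The log2 difference between CGP and saline was 0.81 ± 0.14 (SE), or 1.76-fold, and it was 0.90 without the 6 libraries. Both CGP groups reached the same level, while the 2 male CON libraries were the lowest of all.

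H2 (uc007cav.1) was more abundant. It stood at 1335, 1256 and 1490 in CON and at 1378, 837 and 1479 in SRA. In CON_CGP it stood at 2686, 1859, 1941 and 2084, and in SRA_CGP at 2732, 1796, 2338 and 2710. SRA replicate 2 was far below the other saline libraries, and the CGP libraries spread from 1796 to 2732. The log2 difference was 0.81 ± 0.15 (SE), and it was 0.68 without SRA replicate 2. H3 copied it within 0.1 log2 units in every library, so both may count the same reads.

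H4 and H5 had the largest differences of the higher transcripts, and the widest spread. H5 lay between 2413 and 3361 in the 6 saline libraries. In CON_CGP it stood at 11247, 4325, 7823 and 4137, and in SRA_CGP at 11869, 3912, 4429 and 3953. The male replicate 1 of each CGP group was thus the highest library of its group, and 5 of the 8 CGP libraries stayed between 3912 and 4429. The log2 difference was 1.01 ± 0.28 (SE), or 2.01-fold, the only one of the 38 at 1 or more. Without those 2 libraries, which had the highest levels of other-sex transcripts, it was 0.67, and without all 6 libraries 0.66. H4 followed a like order in CON_CGP, at 5003, 1939, 3527 and 1939. In SRA_CGP it stood at 3236, 2338, 1851 and 2032, against 1099 to 1567 under saline. Its log2 difference was 0.87 ± 0.21 (SE), 0.65 without both replicates numbered 1 and 0.82 without the 6 libraries.

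H1 to H5 stood apart from the other higher transcripts in size. They were the only higher transcripts with a log2 difference of 0.5 or more, and the only ones with a gap of at least 0.2. H6, the next, was at 362 to 418 under saline and 457 to 554 under CGP, a log2 difference of 0.35 ± 0.07 (SE) with a gap of 0.128. H7 was at 699 to 763 under saline and 806 to 1055 under CGP (0.29 ± 0.06). Both had CON_CGP replicate 1 as their lowest CGP library, which was the highest one in 15 of the 25. H11 stood at 376, 300 and 379 in CON and 316, 305 and 283 in SRA, against 389 to 402 in CON_CGP and 400 to 433 in SRA_CGP (0.32 ± 0.08). Its CGP libraries were close to each other, and its saline libraries less so.

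Several abundant transcripts separated with small differences. H18, with a mean of 13900, stood at 12893 to 13579 under saline and 13635 to 14882 under CGP. Its log2 difference was 0.10 ± 0.06 (SE), and its gap was 0.006. H8 stood at 6699 to 7866 under saline and 8249 to 9321 under CGP (0.24 ± 0.06). H13 stood at 4383 to 4939 under saline and 5000 to 6148 under CGP (0.22 ± 0.07). H14 and H15 copied H13, H9 copied H8, H21 copied H18 and H25 copied H16, each within 0.1 log2 units in every library. The log2 differences of H16 and H25 were 0.12 and 0.13, and both were 0.07 without SRA replicate 3 and 0.06 without the 6 libraries with other-sex transcripts. H19 and H24 also moved without the 6, from 0.22 to 0.12 and from 0.21 to 0.13. Over all 25 the differences ran from 0.09 to 1.01 with a median of 0.24, where the median of all transcripts examined was -0.02. The 25 were chosen for lying higher, so these medians differ by the choice itself.

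Among the 13 lower transcripts, L1 had the largest gap, 0.15, at the lowest mean, 12.8. It stood at 14.9, 15.5 and 19.8 in CON and 18.9, 19.1 and 15.2 in SRA. Under CGP it stood at 6.45, 13.3, 10.1 and 10.8 in CON_CGP and 9.11, 12.3, 4.52 and 8.66 in SRA_CGP. The number of reads behind such low values is not known. Its log2 difference was -0.86 ± 0.27 (SE), and -0.60 without the 6 libraries.

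The pair with the next gaps was L2 (uc009ikb.1) and L3 (uc009ika.1), which copied each other. L2 stood at 384, 356 and 304 in CON, with a mean of 348 ± 40.5, and at 278, 267 and 343 in SRA, with a mean of 296 ± 41.3 (SD, n = 3 each). In CON_CGP it stood at 237, 236, 226 and 225, a mean of 231 ± 6.44 (SD, n = 4). In SRA_CGP it stood at 241, 229, 242 and 173, a mean of 221 ± 32.6 (SD, n = 4). Of the 8 CGP libraries 7 lay between 225 and 242, and SRA_CGP replicate 4 lay below it. The log2 difference was -0.50 ± 0.09 (SE) for L2 and -0.51 ± 0.09 for L3. Without the 6 libraries they were -0.57 and -0.60.

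L4 showed the opposite layout, with tight saline values. Its saline libraries lay between 6995 and 7175, and its CGP libraries stood at 5241, 6034, 6063 and 5841 in CON_CGP and 5722, 6452, 6594 and 5795 in SRA_CGP. The log2 difference was -0.25 ± 0.06 (SE). L5 was at 2745 to 3470 under saline and 2233 to 2589 under CGP (-0.32 ± 0.08), with CON replicate 3 and SRA replicate 3 the highest. Both of these are among the 6 libraries, without which the difference was -0.22. L8 was the smallest of the lower differences, at 11428 to 12415 under saline and 10177 to 11330 under CGP (-0.12 ± 0.06).

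L7 was lowest in the 2 libraries in which H5 was highest. It stood at 14 in CON_CGP replicate 1 and 16.2 in SRA_CGP replicate 1, at 33.5 to 47.2 in the other 6 CGP libraries, and at 48.5 to 69.2 under saline. The log2 difference was -0.83 ± 0.29 (SE), and -0.48 without both replicates numbered 1. L6 and L9 had SRA_CGP replicate 4 as their lowest library, at 54.1 and 50.9, with 83.8 and 67.3 the next lowest CGP values. The log2 difference of L9 was -0.42 ± 0.16 (SE), and -0.59 without the 6 libraries. Over the 13 lower transcripts the log2 differences ran from -0.86 to -0.12, with a median of -0.42.

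**Figure D2:**
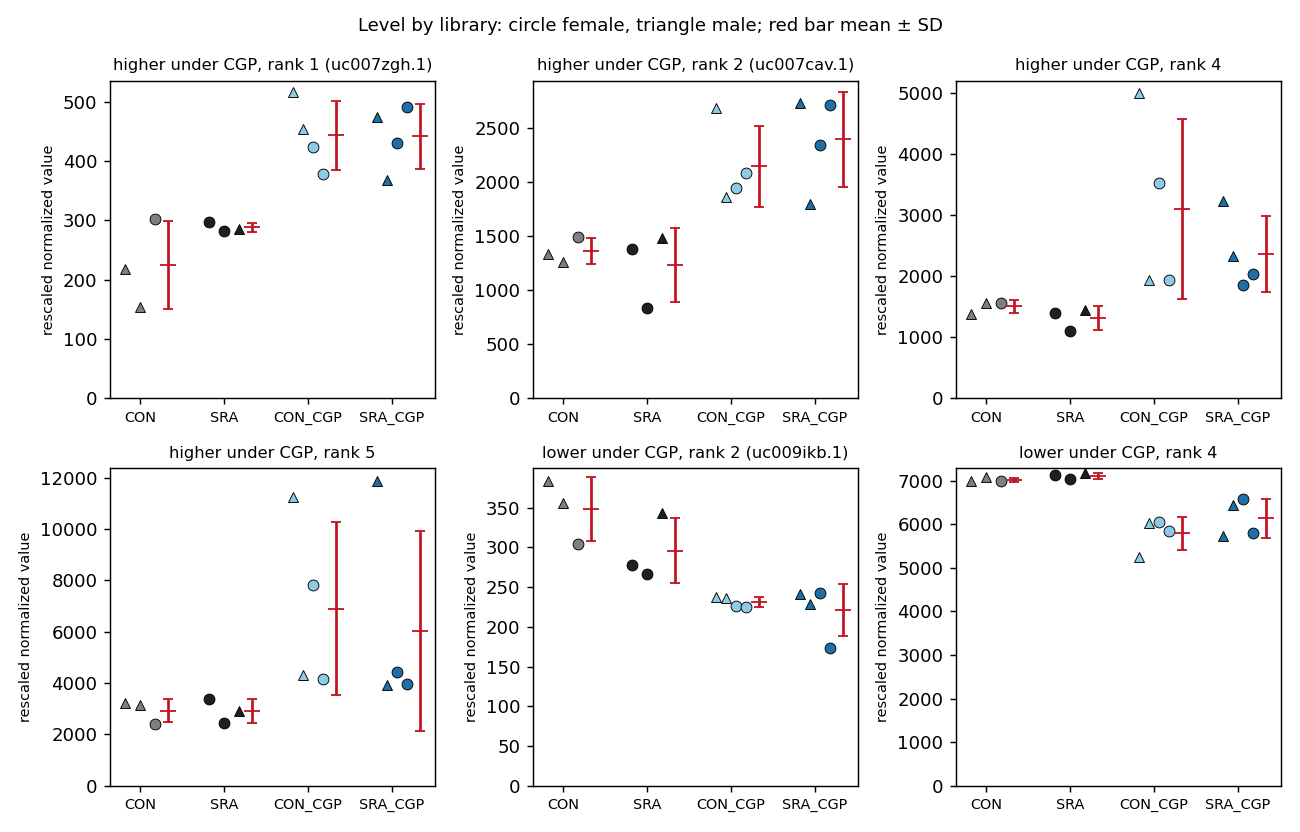
Each panel shows 1 transcript, with the rescaled normalized value on a linear axis from 0 by group; circles are females, triangles males, and the red bar is the mean ± SD of the group (n = 3 or 4). For H5 the replicates 1 of both CGP groups stand at 11247 and 11869, while for L4 the saline libraries lie within 6995 to 7175.

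Most gaps were narrow. Of the 25 higher transcripts 16 had a gap of at least 0.01 and 9 of at least 0.05, and of the 13 lower ones 8 and 6. L13, just inside, had its nearest libraries of both arms at 150.91 (gap 4.1e-05). H25 was next among the narrowest, with 1910.4 the highest saline and 1910.8 the lowest CGP value. Just outside were a transcript with a saline edge of 11435 and a CGP edge of 11436 (gap -0.00014) and another at 674.91 and 674.38 (gap -0.0011). In all, 14 of the 38 lay within 0.01 of the limit and 11 transcripts lay within 0.01 outside it. Among the transcripts dropped for a mean under 10, 1 was fully higher and 2 fully lower under CGP on the same scale, and none of the 200 most abundant separated.

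Which libraries set the edges was uneven. On the saline side CON replicate 3 was the nearest library for 10 of the 25 higher transcripts, and on the CGP side SRA_CGP replicate 2 was the nearest for 9. Both counts hold near-identical transcripts more than once, such as H2 with H3 and H18 with H21. CON_CGP replicate 1 was the highest of the CGP libraries for 15 of the 25, in 11 of the 19 clusters of near-identical transcripts, and SRA_CGP replicate 1 for 4. For the 13 lower transcripts SRA_CGP replicate 4 was the lowest CGP library for 5, in 4 of the 12 clusters. Whether the level of other-sex transcripts in CON_CGP replicate 1 and SRA_CGP replicate 1 has a part in this was not tested. Without both, all 25 kept a positive and all 13 a negative log2 difference, with medians of 0.22 and -0.40. Without the 6 libraries the signs also held, with medians of 0.20 and -0.38. The rule all but fixes these signs for any subset of the libraries, so they do not bear on that question.

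The 38 transcripts held 31 clusters, as 13 of them fell into 6 groups of near-identical values. This compares levels, so transcripts alike in pattern but not in level count apart. H17 and H20 are such a case, with the same nearest and the same farthest libraries in both arms. For 6 of the 38 (H13 to H15, L8, L9 and L12) a near-identical transcript was also examined that did not separate. The median level of the 38 was 1850, against 607 for all 39756. Their median SD within groups was 0.119 log2 units, against 0.323. Both follow in part from the rule, which a transcript with little spread can meet with a small difference, so they describe the choice and are no finding. The median size of the log2 difference was 0.283, against 0.126 for all. The rule selects on this difference, so that comparison is no finding either.

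The CGP difference had the sign of the rule in both genotypes, as the rule requires. For the higher transcripts its median was 0.22 in non-transgenic and 0.24 in SRA mice, and for the lower ones -0.35 and -0.42. It was larger in SRA mice for 13 of the 25 and for 8 of the 13. For H1 it was 1.02 in non-transgenic and 0.61 in SRA mice, and for H2 0.64 and 0.98. These values are differences of group means. The interaction of genotype and CGP was tested with limma in the model that holds sex, so it need not equal their difference. The rule requires the same sign in both genotypes and disfavours spread within an arm, so this test is not independent of the choice, and its counts are not read against the table. None of the 38 passed (Benjamini-Hochberg adjusted p from 0.934 to 1), where 0% of the 39756 were called. Of the 38, 0 had an unadjusted p under 0.05; the share over the table was 4.35%. In each direction the smallest p belonged to H11 (0.30 ± 0.16, log2 difference of the responses, SE) and H20 (-0.27 ± 0.14), where limma gave an adjusted p of 0.934 for both. Over 23 alternatives H11 ran from 0.16 to 0.48 and H20 from -0.32 to -0.10. The SE of the interaction had a median of 0.15 over the 38, beside a median size of the CGP difference itself of 0.283, so unequal responses of moderate size may have gone undetected.

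**Figure D3:**
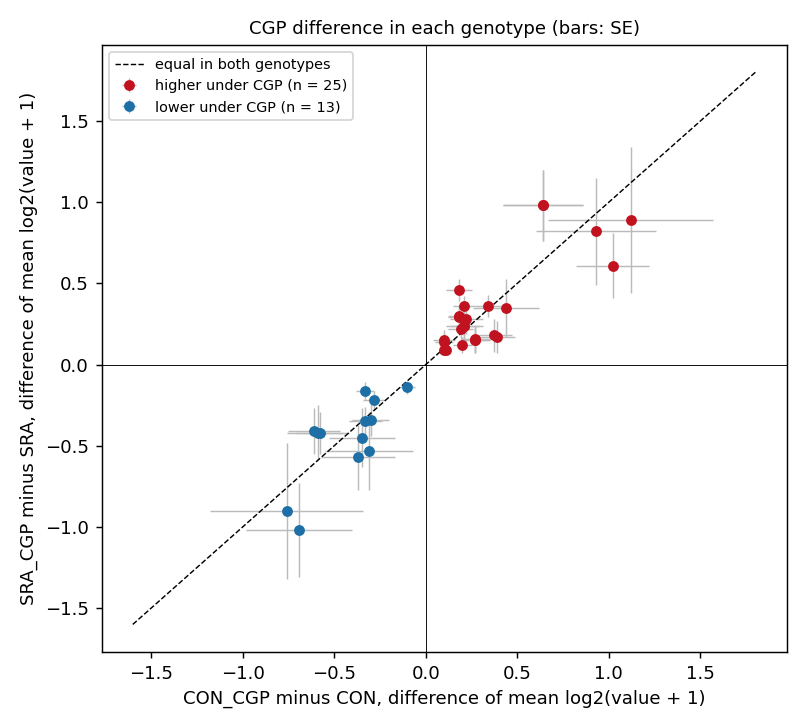
Each point is 1 of the 38 transcripts, with the CGP difference in mean log2(value + 1) in non-transgenic mice on the horizontal axis and in SRA mice on the vertical axis; grey bars are SE and the dashed line marks equal differences. The points lie on both sides of the line, with H1 at 1.02 and 0.61 and H2 at 0.64 and 0.98.

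Genotype and sex were on both sides of the separation and were also tested with limma over all 39756 transcripts. A transcript with a wide difference between genotypes or sexes can hardly separate the arms, so the counts below are not independent of the choice and are not read against the table. Averaged over both infusions, SRA minus non-transgenic passed for 0 of the 38, where 0.00252% of all transcripts passed. That share is 1 transcript, and without CON replicate 2 or CON_CGP replicate 1 the whole table gave 1550 or 1210 calls, with 0 of the 38 among them. None of the 38 had an unadjusted p under 0.05, against 22.7% of the table. The log2 differences ran from -0.21 to 0.19. The smallest p among the positive differences belonged to L10, at 0.19 ± 0.10 (SE, limma adjusted p = 0.259). Among the negative ones it belonged to L11, at -0.12 ± 0.08 (SE, limma adjusted p = 0.361). Under saline the mean of L10 was 260 ± 19.5 (SD, n = 3) without and 298 ± 14 (SD, n = 3) with the transgene. Under CGP it was 208 ± 22.4 (SD, n = 4) without and 234 ± 19.8 (SD, n = 4) with it. On the deposited scale its genotype difference was -0.0043 and that of L11 was -0.32, so the direction for L10 depends on the scaling. Size factors were 1.03 to 1.161 in CON and 0.8538 to 0.9542 in SRA. They were 0.9296 to 1.126 in CON_CGP and 0.885 to 1.06 in SRA_CGP. Rescaling thus moves the genotype difference of every transcript.

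Female minus male passed for 0 of the 38 as well, where 5.38% of all transcripts passed. The log2 differences ran from -0.38 to 0.34. L3 had the smallest p, at -0.24 ± 0.09 (SE, limma adjusted p = 0.209), and was the only one of the 38 with an unadjusted p under 0.05, against 16.6% of the table. L7 was the one with the smallest p among those higher in females, at 0.34 ± 0.29 (SE, limma adjusted p = 0.608). Without the 6 libraries its sex difference was -0.29. Leaving out 1 library gave 0.15 to 0.49, the lowest without CON_CGP replicate 1, a male library in which L7 was lowest of all.

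How many and which transcripts separated depended on the scaling. With the deposited values and no rescaling 33 separated, 16 higher and 17 lower, and only H1, H2, H3 and L10 were among them. These 4 are 10.5% of the 38 and 12.1% of the 33. With quantile normalization 49 separated, 15 of them among the 38 (39.5% of the 38 and 30.6% of the 49). H1 to H7, H10 to H12, L1 to L3, L5 and L12 were those 15, so H1, H2 and H3 were the ones that separated under all 3 scalings. L2 and L3 overlapped by 0.083 and 0.033 log2 units on the deposited scale. In the limma fit the signs of all 38 held under each of these scalings. The 38 were chosen on this same contrast, so the signs from that fit are no support for them. Over the whole table that fit called 1 transcript between CGP and saline, which was lower under CGP.

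**Figure D4:**
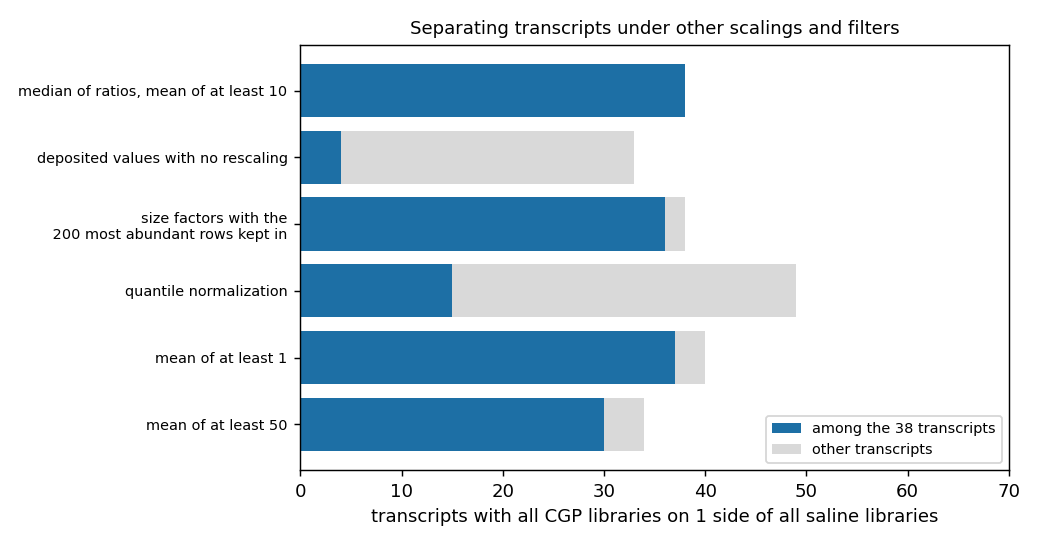
Each bar counts the transcripts whose CGP libraries all lie on 1 side of all saline libraries under 1 scaling or filter, with the 38 described here in blue and others in grey. With the deposited values 4 of 33 are among the 38, and with quantile normalization 15 of 49.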

How the data were processed

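RNA sequencing of inguinal fat from 14 mice was analysed from 1 table of the whole series. Its deposited values are treated as a score (normalized counts, per the file headers), in whole numbers whose library totals hardly differ. The submitters' processing notes list FastQC, Bowtie and edgeR and the build mm9; the role of each and the way of normalizing are not stated in those notes. Total RNA was DNase treated and made into Illumina libraries, per the labels' protocols. Columns were tied to mice by the number in each description, and 0 columns were left over.

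Separation was read after median-of-ratios rescaling. Other contrasts were tested with limma 3.58.1 in R 4.3.3 on log2(value + 1), with robust moderation of the variance along a trend with abundance, over all 39756 transcripts and with 9 residual degrees of freedom. P-values are 2-sided and Benjamini-Hochberg adjusted, with a threshold of 0.05. The fit was tested on simulated data. The transcripts, contrasts and lists were chosen with earlier results of these data known. IDs are printed for the 2 transcripts per direction with the largest gap and a mean of at least 100; for other contrasts those that passed, or the smallest p in each direction, are described. The planned marker lists were not run, as IDs carry no names. Same-numbered libraries correlated above 0.1 in 11 of 19 pairs (r from -0.264 to 0.624), and 5 of 14 libraries correlated best with their own number. These values do not settle whether the numbers pair the mice. The main fit did not use the numbers. Alternatives were other scalings, filters, pseudocounts, no sex term, a replicate block and leaving libraries out.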

Additional observations from a re-analysis of the deposited data

Results flagged for a closer look

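Among the CGP groups, which have 4 libraries each, 9 of 76 groups of values held 1 library far from the other 3 by Dixon's criterion. Chance flags about 1 in 20 in unselected values, but that rate does not hold for these transcripts. The rule bounds each CGP group on the side facing saline, and all 9 lie on the far side. Near-identical transcripts are also counted more than once, so no excess can be read from the 9. H5 stood at 11869 in SRA_CGP replicate 1, with the others at 3910 to 4430. H13, H14 and H15, which copy each other, stood at 6042, 6130 and 6084 in SRA_CGP replicate 4. H19 stood at 1822 and H23 at 615 in CON_CGP replicate 1, where L7 stood at 14. L8 stood at 10177 in SRA_CGP replicate 1, and L9 at 50.9 in SRA_CGP replicate 4.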

How the results depend on the processing

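The number of separating transcripts lay between 33 and 49 over the other scalings and the filters on low and abundant transcripts, and merging near-identical ones left 31 clusters. Leaving out 1 library gave 48 to 152, the highest without SRA replicate 3; fewer libraries must then fall on 1 side, but why this library gave more than SRA replicates 1 and 2 (67 and 66) was not tested. Without the 6 libraries, an alternative chosen after seeing the data, 1348 of 39756 (3.39%) separated, with 35 of the 38 among them. This left out 2 of 6 saline and 4 of 8 CGP libraries. Separation is then far easier to meet without any effect of CGP, so the 1348 cannot be set against the 38. Transcripts that separate in all libraries nearly must separate in a part of them. The median log2 difference lay between 0.23 and 0.26 (higher) and between -0.48 and -0.36 (lower) without 1 library. The list was held at the 38, which were chosen on this contrast, so these ranges are a description only. In every alternative run, 0 of the 38 were called for genotype, sex or interaction where these were tested. The filter at a mean of at least 50 left out L1 and L7, and the run with no sex term had no sex test. Over the whole table these runs called 0 to 1550 transcripts for genotype, 690 to 2474 for sex and 0 to 3 for interaction. The rule disfavours such differences in the 38, so their counts are not read against the table. With the replicate block, 0 of the 38 were called in each, while over the whole table calls for genotype went from 1 to 738 (1550 without CON replicate 2 and 1210 without CON_CGP replicate 1); 5 of 14 libraries correlated best with their own number. The genotype difference of L10 was -0.0043 on the deposited scale, which leaves out size factors that differ between the genotypes. The sex difference of L7 was -0.289 without the 6 libraries. The saline libraries then left were all male in CON and all female in SRA, so that sex difference rests on the CGP groups. The depth is unknown, so no limit from read counts can be given, and L1 in particular rests on low values.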
